A study of Sus scrofa with 14 samples.

Results

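The mammary gland of the sow on the second day of natural involution (PI2) was compared with the gland at day 20 of lactation (L20), over all nuclei and then over stromal nuclei alone. The comparison used 4 of the 14 samples of the series, which are PI2 replicates 1 and 2 and L20 replicates 1 and 2, each a library of nuclei from frozen mammary tissue of a multiparous sow. Nuclei with at least 300 detected genes were kept, which left 50106 of the 127926 kept nuclei of all 10 gland libraries. Stromal nuclei were those with at least 2 UMIs (unique molecular identifiers, each counting 1 captured RNA molecule) over DCN, COL1A1, COL1A2, PTPRB, MMRN1 and RGS5, and 0 UMIs of the epithelial gene EPCAM. This gate held 10485 nuclei in the 4 libraries, out of 19798 in the 10 libraries.

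The libraries were made with the GEXSCOPE kit for nuclei and cover 5 stages with 2 libraries each: day 90 of gestation (G90), day 0 of lactation (L0), L20, PI2 and day 7 of involution (PI7). The sows of all stages received the same kind of diet, and no drug, allele or other treatment is given in the labels. Each sow gave a single piece of a gland, so a difference between glands of a sow and a difference between sows cannot be told apart. The libraries are taken as replicates, and p-values measure only the spread between these samples.

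During lactation the secretory epithelium makes milk proteins, milk fat and lactose under prolactin signalling through STAT5. When milk is no longer removed, secretion stops, STAT3, NF-kappa-B and lysosomal pathways become active, alveolar cells die and are cleared, and macrophages, proteases and refilling adipocytes remodel the stroma. In the sow this begins when piglets stop sucking and proceeds gland by gland.

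The 4 libraries held 9400 to 15323 kept nuclei and 18873204 to 39924205 UMIs, with a median of 1405, 1922, 1741 and 1644.5 UMIs per nucleus in L20 replicates 1 and 2 and PI2 replicates 1 and 2. Pairs of these libraries shared 74 to 104 barcodes, at most 0.841% of a library. The stromal sums were far more uneven, with 1900224, 19466894, 4751125 and 457470 UMIs in the same order. Values are given throughout as CPM, the UMIs of a gene per 1000000 UMIs of the library or of its stromal nuclei, and always in this order of libraries. Mitochondrial genes took 5.25% and 2.19% of UMIs at L20 and 0.199% and 1.49% at PI2. With nuclei limited to 500 or more genes and 5% mitochondrial UMIs, edgeR still called 0 genes over all nuclei and 0 in stromal nuclei.

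The replicates of each of these stages disagreed more than those of the other stages. Among 12851 genes above 5 CPM, the median absolute log2 ratio (CPM + 1) was 0.80 between the L20 libraries and 0.72 between the PI2 libraries, against 0.54 at G90, 0.26 at L0 and 0.45 at PI7. More than a 2-fold gap separated the L20 libraries in 41.2% of these genes and the PI2 libraries in 35.9%. Among the 4 pairs that cross L20 and PI2, L20 replicate 1 and PI2 replicate 2 lay closest, with a median ratio of 0.37 and a gap over 2-fold in 11.8% of genes. L20 replicate 2 and PI2 replicate 2 lay farthest apart of the 4, at 0.91. Among the 9 other gland libraries, ranked by Spearman correlation across genes, the replicate of the same stage ranked last for L20 replicate 1, at 9. That rank was 7 for L20 replicate 2, 8 for PI2 replicate 1 and 7 for PI2 replicate 2. The library most like L20 replicate 2 was PI7 replicate 1, and the library most like PI2 replicate 1 was PI7 replicate 2. The labels were kept as given, and whether a library was swapped or carries the wrong stage was not tested, a doubt that touches every value of PI2 against L20. The gap between the stage means exceeded the larger gap between replicates in 1605 of 12851 genes, or 12.5%.

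**Figure D1:**
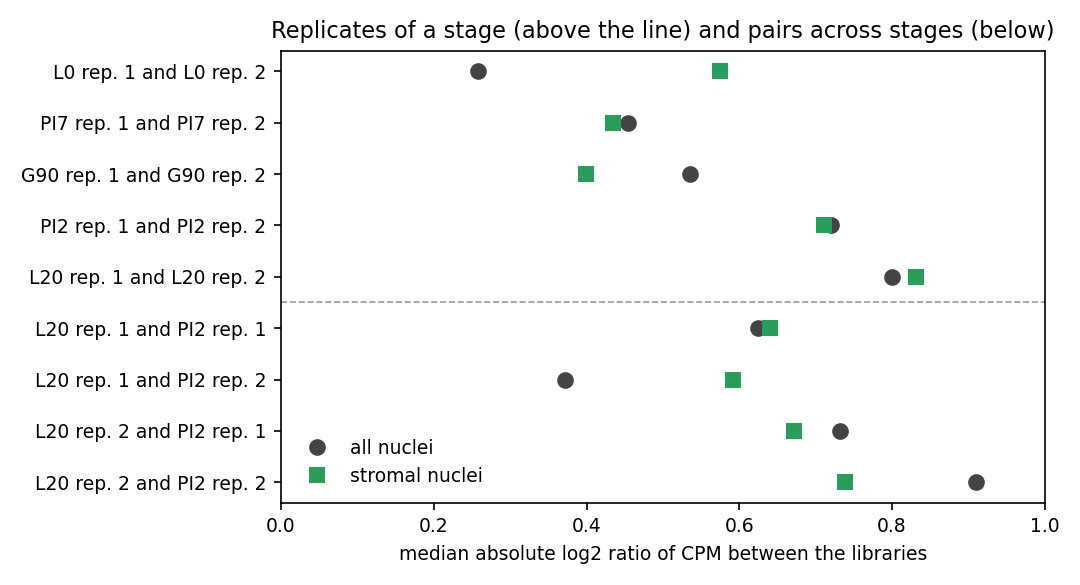
Median absolute log2 ratio of CPM between pairs of libraries, for all nuclei (circles) and for stromal nuclei (squares); pairs above the dashed line are replicates of a stage and pairs below it cross L20 and PI2. The L20 and PI2 replicate pairs sit at 0.71 to 0.83, above the other 3 stages, while L20 replicate 1 and PI2 replicate 2 sit at 0.37 over all nuclei.

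The stromal sums did not bring the replicates together. Over 12720 genes the median ratio was 0.83 between the L20 libraries and 0.71 between the PI2 libraries, against 0.40 at G90, 0.58 at L0 and 0.43 at PI7. The 4 pairs that cross L20 and PI2 had ratios from 0.59 to 0.74. The stage gap exceeded the larger replicate gap in 1597 of these genes, or 12.6%.

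Named genes show how the replicates parted. HPS5, a subunit of a complex that builds lysosome-related organelles, had 9829 CPM in L20 replicate 1 and 12455 CPM in PI2 replicate 2, against 101 and 38.2 CPM in L20 replicate 2 and PI2 replicate 1. In the RefSeq annotation of Sscrofa11.1, HPS5 lies on chromosome 2 from 40906785 to 40938847 and is followed by the serum amyloid A genes SAA1P, SAA2 and SAA4. How reads near these genes were assigned was not tested. FDCSP, a secreted peptide gene, had 461, 1.18, 0.807 and 87.0 CPM, and TGM5, a transglutaminase, had 29.6, 2.63, 1.65 and 220 CPM. These genes were high in L20 replicate 1 and PI2 replicate 2 and low in the other pair. DLC1, a tumour suppressor gene, went the other way with 43.4, 2958, 323 and 49.5 CPM, as did the Wnt regulator DKK2 with 3.70, 296, 39.0 and 4.24 CPM. LVRN, an aminopeptidase, had 2.28, 193, 15.2 and 1.48 CPM. LMCD1, a LIM domain transcription cofactor, was highest in PI2 replicate 1, with 6.62, 59.1, 293 and 2.86 CPM. In stromal nuclei COL6A6, a collagen VI chain, had 1.05, 351, 114 and 0 CPM, and PGLYRP1, a peptidoglycan-binding protein of granulocytes, had 950, 8.78, 160 and 91.8 CPM.

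The share of stromal nuclei was not separated between the stages. It was 9.16% (95% exact binomial interval 8.67 to 9.67) and 42.7% (41.9 to 43.5) at L20, and 20.5% (19.8 to 21.2) and 2.16% (1.88 to 2.47) at PI2, where the intervals cover counting error only. The mean was 25.9% ± 23.7 (SD, n = 2) at L20 and 11.3% ± 13 (SD, n = 2) at PI2. The replicates differed 4.66-fold at L20 and 9.49-fold at PI2. The smallest two-sided p that an exact permutation test of 2 against 2 libraries allows is 0.33, and no other test of the share was run. With each nucleus thinned to 500 UMIs the shares were 4.93%, 23.3%, 10.1% and 0.957%, with the libraries in the same order.

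Fibroblast genes led most of the gated nuclei, with endothelial genes next. DCN, COL1A1 and COL1A2 together led 69.3%, 73.5%, 58.6% and 62.6% of gated nuclei, and the lymphatic endothelial gene MMRN1 led 12.5%, 13%, 23.7% and 14.3%. PTPRB, a phosphatase of blood endothelium, led 7.01%, 6.17%, 6.89% and 17.7%, and the pericyte gene RGS5 led 1.18%, 0.779%, 1.21% and 3.45%. Summed over 9 fibroblast markers, stromal nuclei had 8731, 11563, 4362 and 6158 CPM, against 1015, 6041, 1192 and 226 CPM in all nuclei, a gap that the gate itself sets in part, since DCN, COL1A1 and COL1A2 are among the 9. Luminal epithelial markers were also present in the gated nuclei, at 1559, 198, 1481 and 1281 CPM.

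Over all nuclei, edgeR called 0 of 22658 genes at an adjusted p under 0.05 and an absolute log2 fold change over 1. At an unadjusted p under 0.05 with that fold change 854 genes passed, 329 higher and 525 lower at PI2, which is 1.45% and 2.32% of the genes and 3.77% in either direction. Without TMM scaling the split was 205 higher and 677 lower, and the median log2 fold change of all genes moved from 0.04 to -0.27. DESeq2 called 30 genes on the same sums, 2 higher and 28 lower, with 1391 genes at an unadjusted p under 0.05. In an edgeR fit of only the 4 libraries of L20 and PI2, 0 genes were called. There 382 of 20018 genes passed at an unadjusted p under 0.05 with that fold change, 92 higher and 290 lower. The libraries of the stages did not overlap in 7.42% of genes that were higher and 17.9% that were lower at PI2, 25.3% in all. In whole-gland sums, fewer nuclei of a type and less RNA of a gene per nucleus cannot be told apart. Counts of list members at an unadjusted p, given further on, also require the fold change limit. The genes named next are those of smallest unadjusted p. None was called in the edgeR fit of all 10 libraries. Without the filter on low counts edgeR called CPSF6, TREH and CYP7A1, at adjusted p of 0.00639, 0.00695 and 0.0414.

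The leading genes that were lower at PI2 included the macrophage markers CD163 and MSR1 and the lysosomal protease CTSL. TREH, which encodes the enzyme that splits trehalose (chromosome 9, 45949891 to 45965372), had 40.1, 39.0, 1.09 and 0.795 CPM, a log2 fold change of -5.15 ± 0.71 (SE) with an adjusted p of 0.158. Both L20 libraries were above both PI2 libraries and above the 6 libraries of the other stages, which had 0.284 to 24.0 CPM. CPSF6, a subunit of the factor that cleaves pre-mRNA 3' ends, had 93.5, 297, 4.88 and 1.54 CPM (-5.53 ± 0.86, adjusted p of 0.313), while the other 6 libraries had 1.46 to 140 CPM. CPSF6 lies on chromosome 5 from 33525668 to 33559941 and is followed in the annotation by LYZ, the lysozyme gene, from 33612593 to 33618953. How reads near LYZ were assigned was not tested.

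CYP7A1, the rate-limiting enzyme of bile acid synthesis, had 25.5, 183, 4.24 and 1.70 CPM, a log2 fold change of -4.65 ± 0.86. Its L20 libraries were above the other 6 libraries, which had 1.42 to 17.2 CPM. CD163, the scavenger receptor by which macrophages take up haemoglobin (chromosome 5, 63300200 to 63334497), had 160, 786, 27.2 and 21.8 CPM (-3.80 ± 0.76). CTSL, a lysosomal cysteine protease on chromosome 10 from 27668523 to 27674705, had 36.3, 43.8, 3.43 and 5.40 CPM (-2.89 ± 0.59), with 1.31 to 8.43 CPM in the other 6 libraries. CTSL was thus high at L20 alone among these 10 libraries. The adjusted p of CYP7A1, CD163, CTSL and of each whole-gland gene given with a fold change from here on was 0.817.

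The other leading genes lower at PI2 included further genes of myeloid cells. MSR1, a macrophage scavenger receptor, had 30.7, 74.8, 6.58 and 6.36 CPM (-2.64 ± 0.54), and TFEC, a transcription factor of the lysosomal gene family, had 18.3, 84.6, 3.59 and 4.34 CPM (-3.22 ± 0.66). CD200R1, an inhibitory receptor of myeloid cells, had 20.4, 112, 5.85 and 4.19 CPM (-3.24 ± 0.72). GP91-PHOX, the catalytic subunit of the phagocyte NADPH oxidase, had 31.0, 136, 8.68 and 5.09 CPM (-3.15 ± 0.73). GPX3, a secreted glutathione peroxidase, had 37.2, 136, 7.83 and 2.49 CPM (-3.66 ± 0.86). In each of these the lower L20 library still exceeded the higher PI2 library, and the L20 replicates differed by more than the PI2 replicates. Without L20 replicate 2 the fold change of CD200R1 was -2.08. DESeq2 called all 10 of the leading lower genes.

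The genes that led in the other direction, higher at PI2, included enzymes, adhesion proteins and regulators of transcription. AKR1C2, an aldo-keto reductase that acts on steroids, had 6.41, 13.8, 88.8 and 43.3 CPM (3.05 ± 0.71), and MLPH, which links pigment and other granules to myosin, had 6.80, 20.5, 175 and 29.0 CPM (3.27 ± 0.80). Both were also called by DESeq2, as the only genes called higher. NACC2, a transcriptional repressor, had 11.7, 12.9, 75.5 and 38.4 CPM (2.45 ± 0.72). PAPLN, a matrix glycoprotein, had 14.2, 10.9, 105 and 34.7 CPM (2.65 ± 0.72), but the 6 other libraries reached from 14.5 to 1386 CPM. AMOTL2, a junction protein that binds YAP, had 45.9, 37.6, 81.0 and 253 CPM (2.25 ± 0.62). PI2 replicate 1 was the higher of the pair for the first 4 of these genes and PI2 replicate 2 for AMOTL2. The fold change of MLPH was 1.62 without PI2 replicate 1, and that of AMOTL2 was 1.1 without PI2 replicate 2.

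CEACAM19, of the CEA adhesion family, had 8.86, 7.14, 42.4 and 22.8 CPM (2.22 ± 0.58), and the other stages had 12.4 to 21.9 CPM, between the L20 and the PI2 libraries. PLEKHG2 had 4.17, 3.86, 13 and 19.3 CPM (2.27 ± 0.67). For the epithelial surface glycoprotein CD24 the values were 5.38, 9.14, 17.6 and 21.2 CPM (1.76 ± 0.53), and for the palmitoyltransferase ZDHHC4 they were 28.9, 42.4, 145 and 77.1 CPM (1.93 ± 0.59). The other 6 libraries had 18.4 to 66.5 CPM of CD24 and 69.6 to 128 CPM of ZDHHC4, so that L20 was below every other stage in both genes. LRIG1, which restrains ERBB receptors, had 39.1, 91.1, 113 and 181 CPM (1.57 ± 0.49).

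**Figure D2:**
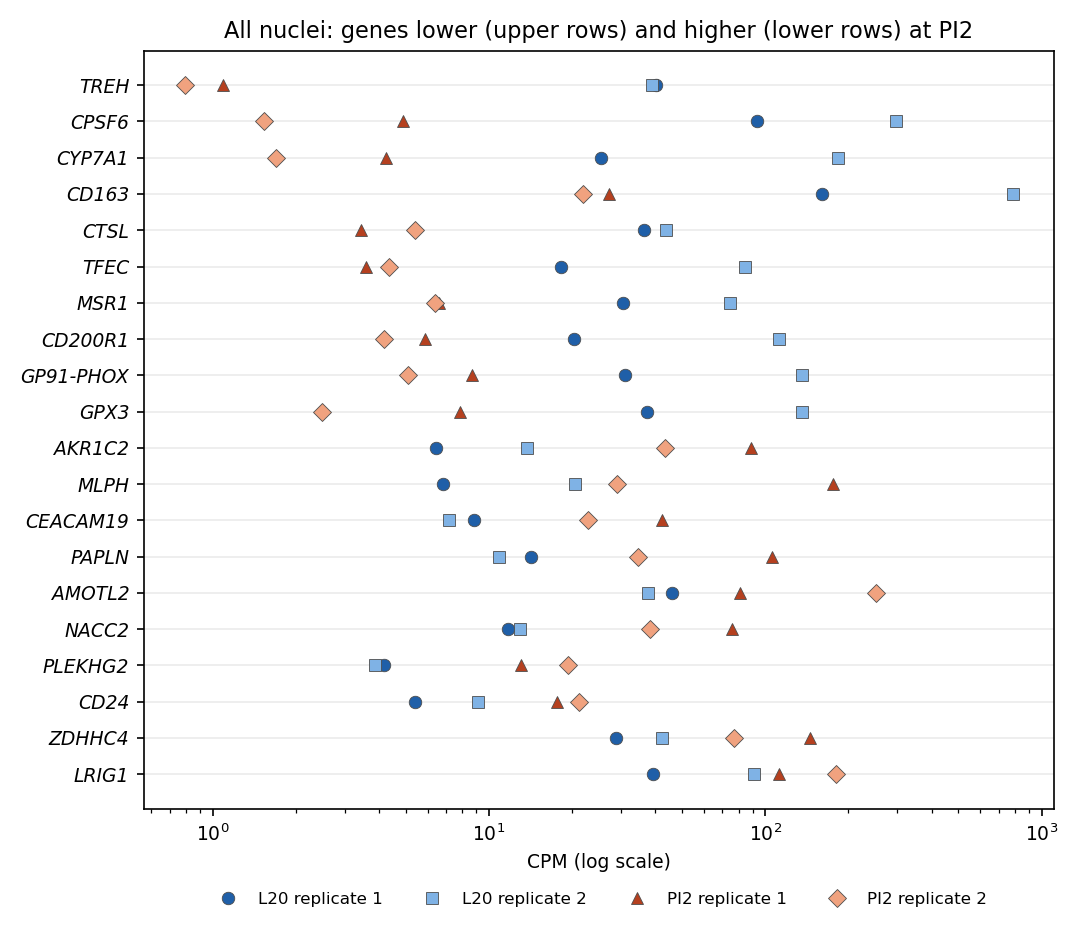
CPM on a log axis of the 20 leading genes over all nuclei, with 1 point for each L20 library (blue) and each PI2 library (red), the genes lower at PI2 first. The stages do not overlap in any of these genes, which the rule that chose them required, and the L20 libraries of CD163 lie apart at 160 and 786 CPM.

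Of 9 macrophage markers, edgeR called 0 and DESeq2 called CD163 and MSR1, 6 were lower at an unadjusted p under 0.05 (2.32% of all genes), 5 did not overlap and were lower (17.9% of all genes), and the median log2 fold change was -1.97, against 0.04 for all genes. Beside CD163 and MSR1, the complement genes C1QA (6.32, 38.0, 3.47 and 2.49 CPM, -2.41 ± 0.77) and C1QB (21.0, 69.1, 11.0 and 6.25 CPM, -1.97 ± 0.67) were lower, as was CSF1R, the receptor for macrophage growth factors (48.5, 105, 26.4 and 25.2 CPM, -1.20 ± 0.50). List members named with a fold change that are not among the highest expressed of their list were chosen after their values were seen. MRC1, the mannose receptor, had 35.0, 395, 45.1 and 11.6 CPM, the general leukocyte gene PTPRC 54.1, 371, 98.8 and 75.6 CPM, and the endotoxin co-receptor CD14 64.5, 34.1, 23.2 and 113 CPM. In these 3 genes the stages overlapped. Without L20 replicate 2 the fold change of C1QA was -1.14. The summed level of the list was 449, 1888, 265 and 277 CPM.

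A gate for macrophages was added after these values were seen, at 2 or more UMIs over CD163, CSF1R, MSR1 and MRC1 and 0 of EPCAM, and serves as a description. It held 6.24%, 25.2%, 2.89% and 2.31% of kept nuclei. Nuclei of this gate carried 65.1%, 93.7%, 73.6% and 79.9% of the CD163 UMIs, a share that the gate itself sets in part, since CD163 is among its genes. They carried 26.7%, 65.7%, 55.6% and 20.0% of the TREH UMIs and 41.5%, 78.9%, 34.7% and 41.4% of those of CPSF6. Without any nucleus that held a UMI of the 4 macrophage genes, TREH stood at 24.2, 14.5, 0.497 and 0.684 CPM and CPSF6 at 43.3, 59.4, 2.98 and 0.627 CPM. CTSL then stood at 18.2, 16.2, 3.39 and 5.18 CPM, and CYP7A1 at 10.5, 37.8, 3.70 and 1.65 CPM. All 4 of these genes still separated the stages without overlap, for which they had been chosen in all nuclei. A macrophage nucleus with no captured UMI of the 4 macrophage genes stays in these sums. In the gate itself TREH had 148, 87.6, 21.3 and 7.78 CPM and CPSF6 534, 800, 59.6 and 31.1 CPM, above all nuclei in each library. Within the macrophage gate the median mitochondrial share was 7.66%, 0.463%, 0.0550% and 1.25%, highest in L20 replicate 1.

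**Figure D3:**
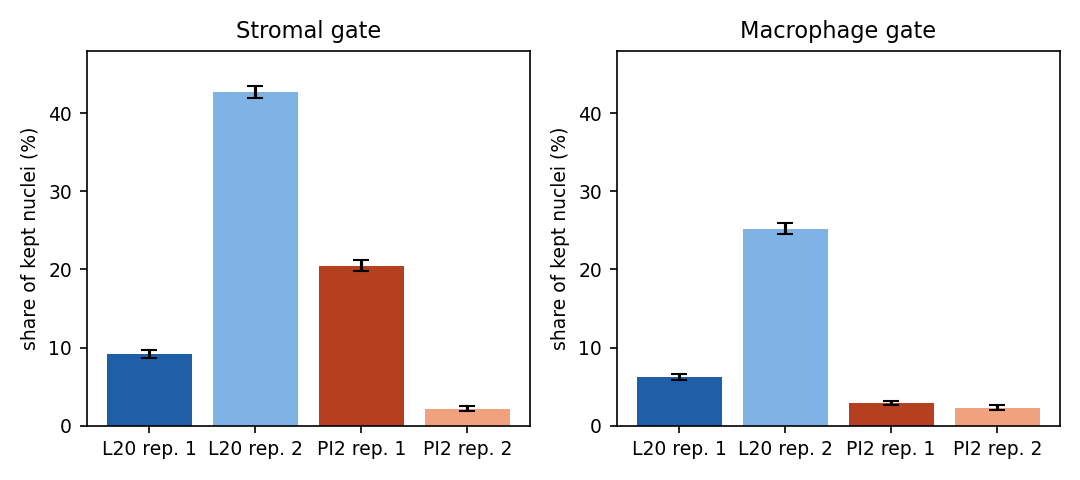
Share of kept nuclei (%) that passed the stromal gate (left) and the macrophage gate (right) in each library, with exact 95% binomial intervals that cover counting error only. The stromal share ranges from 2.16% to 42.7% with the stages interleaved, while the macrophage share is 6.24% and 25.2% at L20 and 2.89% and 2.31% at PI2.

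The other immune lists and the list of dividing cells had counts as follows. Of 6 neutrophil genes, 3 were lower at an unadjusted p under 0.05 and 4 did not overlap and were lower, beside 2.32% and 17.9% of all genes, with a median of -2.14. S100A12, a calcium-binding alarmin, had 22.3, 9.67, 0.121 and 2.23 CPM (-3.60 ± 1.35), and the gelatinase MMP9 had 44.0, 17.6, 2.50 and 7.37 CPM (-2.49 ± 1.06). Of 10 T and NK genes, 2 were higher and 2 did not overlap and were higher, beside 1.45% and 7.42% of all genes, with a median of 0.82. CD3D, a chain of the T cell receptor complex, had 1.46, 4.98, 8.48 and 9.75 CPM (1.93 ± 0.73), whereas the NK receptor KLRK1 had 2.32, 11.0, 60.8 and 7.21 CPM and overlapped. B and plasma cell genes had a median of -0.36 with 0 of 7 at that p, and JCHAIN, which joins secreted antibodies, had 136, 79.5, 99.0 and 146 CPM. Of 9 genes of dividing cells, 5 were lower and 7 did not overlap and were lower, against the same 2.32% and 17.9% of all genes, with a median of -1.55. CDK1, the mitotic kinase, had 23.8, 33.4, 7.02 and 9.96 CPM (-1.44 ± 0.52), and topoisomerase TOP2A 32.9, 18.9, 5.69 and 7.58 CPM (-1.79 ± 0.80). Without L20 replicate 1 the fold changes of S100A12, MMP9 and TOP2A were -2.33, -1.18 and -0.93, and without PI2 replicate 2 the PI2 level of S100A12 rests on 0.121 CPM.

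Several milk genes split the replicates of each stage, and the milk protein genes tested did not separate the stages. CSN2 and LALBA are among the genes named for their large gap between the PI2 libraries. CSN2, the beta-casein gene, had 193, 5.59, 2.22 and 488 CPM, and LALBA, whose product completes lactose synthase, had 125, 1.35, 0 and 92.4 CPM. XDH, which coats milk fat globules, had 826, 54.1, 20.3 and 1381 CPM. L20 replicate 1 and PI2 replicate 2 were high in all 3 genes, and L20 replicate 2 and PI2 replicate 1 were low. Lactoferrin LTF (519, 16.8, 68.4 and 533 CPM) and kappa-casein CSN3 (298, 33.8, 106 and 298 CPM) were likewise high in L20 replicate 1 and PI2 replicate 2, while CSN1S1, the alpha-casein gene, had 206, 65.1, 276 and 139 CPM. Of 9 milk protein genes, 0 passed at an unadjusted p under 0.05 and 0 separated the stages, beside 3.77% and 25.3% of all genes, with a median of 0.33.

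Genes of milk fat and lactose synthesis overlapped in most cases too. The lipid droplet protein PLIN2 had 624, 228, 294 and 284 CPM, fatty acid synthase FASN 552, 54.2, 438 and 350 CPM, and the acyltransferase GPAT4 614, 86.8, 51.0 and 268 CPM. Acetyl-CoA carboxylase ACACA had 159, 255, 177 and 272 CPM. Of 25 milk fat genes, 3 were lower, and these 3 alone did not overlap, with a median of 0.16. Over all genes 2.32% were lower at that p and 17.9% did not overlap and were lower. FABP3, the fatty acid-binding protein of the lactating gland, had 117, 9.92, 7.51 and 9.33 CPM (-2.90 ± 1.01), but without L20 replicate 1 its fold change was 0.34, so its direction rests on that library. The fatty acid carrier CD36 had 121, 603, 64.6 and 46.4 CPM. Of 8 genes of lactose synthesis and glucose supply, 0 separated the stages (median 0.13), among them UGP2, which makes UDP-glucose, with 803, 162, 101 and 598 CPM, and the lactose synthase subunit B4GALT1 with 205, 122, 203 and 344 CPM.

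**Figure D4:**
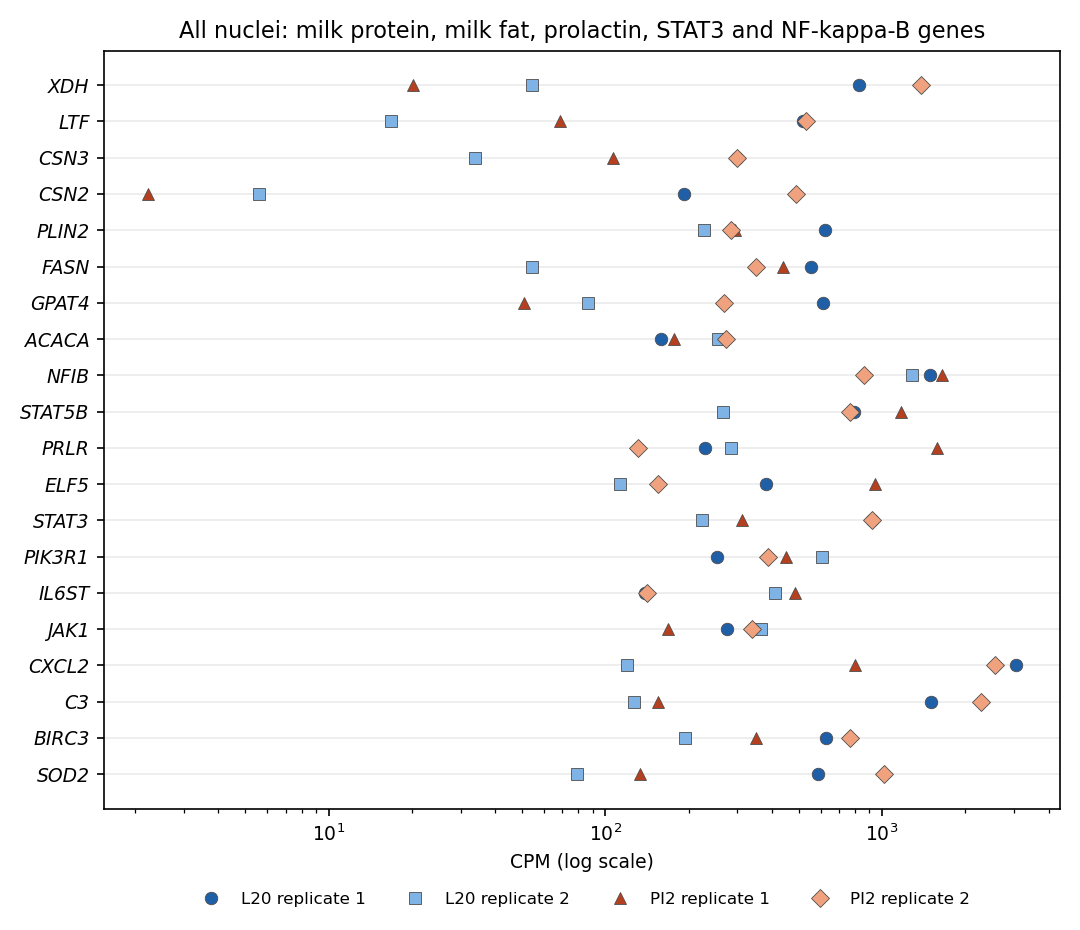
CPM on a log axis of the 4 highest expressed members of the milk protein, milk fat, prolactin and STAT5, STAT3 and NF-kappa-B lists over all nuclei, with 1 point per library. In XDH, LTF, STAT3, C3 and SOD2, L20 replicate 1 and PI2 replicate 2 lie together to the right of L20 replicate 2 and PI2 replicate 1.

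Prolactin signalling genes did not separate the stages as a group, with 1 of 11 higher, 2 not overlapping and higher, 1 not overlapping and lower and a median of 0.45. Over all genes these shares were 1.45%, 7.42% and 17.9%. PRLR, the prolactin receptor, had 229, 284, 1579 and 132 CPM, and ELF5, the transcription factor of alveolar fate, had 382, 113, 943 and 155 CPM. PI2 replicate 1 was far above the other 3 libraries in both. The lactogenic transcription factor STAT5B had 790, 267, 1169 and 765 CPM, and NFIB, which binds milk gene enhancers, had 1492, 1282, 1651 and 859 CPM. STAT5A, the main mediator of prolactin in the gland, had 340, 43.5, 446 and 396 CPM, where both PI2 libraries were the higher ones and the L20 replicates differed the most.

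Several genes of the pathways known from the onset of involution also split by replicate. STAT3, the transcription factor of alveolar cell death, had 916, 224, 312 and 918 CPM, and IL6ST, the shared receptor of the LIF and oncostatin cytokines, had 139, 411, 486 and 141 CPM. Of 18 genes of this list, 0 passed at an unadjusted p under 0.05 and 1 did not overlap (higher), with a median of 0.18. Over all genes 3.77% passed in either direction, and 7.42% (higher) and 17.9% (lower) did not overlap. PIK3R1, a regulatory subunit of PI3 kinase, had 252, 607, 449 and 389 CPM, and the cytokine kinase JAK1 had 275, 364, 169 and 340 CPM. Of 20 NF-kappa-B and acute phase genes, 0 passed and 0 separated the stages, beside 3.77% and 25.3% of all genes, with a median of 0.58. The chemokine CXCL2 had 3056, 119, 802 and 2570 CPM, complement C3 1505, 127, 155 and 2270 CPM, the apoptosis inhibitor BIRC3 626, 194, 349 and 764 CPM, and the superoxide dismutase SOD2 589, 79.1, 134 and 1017 CPM. In each of these 4 the lactation library L20 replicate 1 was closer to PI2 replicate 2 than to its own replicate. The endotoxin-binding protein LBP, outside the highest expressed members, had 982, 36.6, 15.7 and 758 CPM.

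Some lysosomal proteases were lower at PI2. Of 20 genes of cell death and lysosomes, 3 were lower at an unadjusted p under 0.05, 1 did not overlap and was higher, and 9 did not overlap and were lower, with a median of -0.17. Over all genes 2.32% were lower at that p, and 7.42% (higher) and 17.9% (lower) did not overlap. The 3 were cathepsins. CTSD, an aspartic protease, had 540, 305, 73.2 and 106 CPM (-2.07 ± 0.61), and CTSS, the cysteine protease of antigen-presenting cells, had 186, 314, 84.1 and 71.8 CPM (-1.35 ± 0.45). CTSB, with 283, 338, 152 and 275 CPM, was also lower at PI2 without overlap, by a fold change smaller than its SE. Beside the summed macrophage markers given above, nuclei of the macrophage gate carried 30.3%, 63.5%, 14.1% and 14.3% of the CTSD UMIs. Without nuclei that held a UMI of the 4 macrophage genes CTSD stood at 316, 129, 59.3 and 87.2 CPM, and CTSS had a log2 fold change of -0.82. The fold change of CTSD was -1.17 without L20 replicate 1 and -1.10 in nuclei with at most 5% mitochondrial UMIs and 500 or more genes. The translation inhibitor PDCD4 had 740, 393, 444 and 985 CPM, and the stress protein NUPR1 had 511, 93.1, 97.4 and 675 CPM, so that the stages overlapped in both.

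Interferon-stimulated genes (20 tested, median 0.65, 2 not overlapping and higher, 1 lower) and unfolded protein response genes (18 tested, median 0.64, 1 higher and 2 lower) had 0 members at an unadjusted p under 0.05. Over all genes 7.42% (higher) and 17.9% (lower) did not overlap, and 1.45% (higher) and 2.32% (lower) passed at that p. OAS2, a sensor of double-stranded RNA, had 113, 115, 134 and 632 CPM. PI2 replicate 2 alone was high in this gene. The chaperone HSP90B1 had 182, 94.4, 69.3 and 485 CPM. Of 10 antigen presentation genes, 1 was lower (median -0.21), and B2M, the light chain of MHC class I, had 647, 377, 241 and 820 CPM. Among 21 immediate early and heat shock genes (median 0.26), HSP90AA1, a cytosolic chaperone, was the 1 member that passed, with 352, 195, 851 and 603 CPM (1.56 ± 0.62), and FOS had 853, 293, 335 and 135 CPM. The fold change of HSP90AA1 was 2.42 without L20 replicate 1 and 0.99 without L20 replicate 2. All 13 mitochondrial genes were tested, 11 did not overlap and were lower at PI2, 1 passed (lower), and the median was -2.03, where 17.9% and 2.32% of all genes did so. COX2, a subunit of cytochrome c oxidase, had 6279, 3656, 306 and 1664 CPM (-2.12 ± 1.03). Its fold change was -1.20 without L20 replicate 1, -1.32 without PI2 replicate 1, -3.93 without PI2 replicate 2 and -0.69 in nuclei with at most 5% mitochondrial UMIs and 500 or more genes.

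Several matrix genes had lower levels at PI2 over the whole gland, beside the uneven stromal share given above, whose part in them was not tested. Of 27 collagens and matrix proteins, 1 was higher and 3 were lower at an unadjusted p under 0.05 (1.45% and 2.32% of all genes), and 1 and 9 did not overlap (7.42% and 17.9% of all genes), with a median of -0.90. The collagen chains COL3A1 (177, 1324, 245 and 30.5 CPM) and COL1A1 (214, 1151, 192 and 22.6 CPM) were highest in L20 replicate 2 and lowest in PI2 replicate 2, as the stromal share was. COL1A1 is a gene of the stromal gate and so sets that share in part. COL1A2 had 215, 1119, 165 and 20.8 CPM (-2.41 ± 1.02), the small proteoglycan LUM 91.7, 252, 29.5 and 9.59 CPM (-2.77 ± 0.85) and fibronectin FN1 441, 504, 64.7 and 38.6 CPM (-2.94 ± 1.01). THBS1, an adhesive glycoprotein that restrains vessel growth, was the member that was higher, with 251, 302, 340 and 1168 CPM (1.77 ± 0.62), but 0.51 without PI2 replicate 2. The fold change of COL1A2 was -1.31 without L20 replicate 2, -4.39 without PI2 replicate 1 and -1.58 without PI2 replicate 2. Of 19 matrix proteases and inhibitors, 5 were lower, 1 and 8 did not overlap (higher and lower), and the median was -1.08, where all genes had 2.32% lower and 7.42% and 17.9% without overlap. The most abundant members overlapped, namely the protease inhibitor TIMP3 at 74.0, 280, 294 and 86.2 CPM, the gelatinase MMP2 at 22.7, 404, 166 and 5.09 CPM and stromelysin MMP11 at 108, 27, 162 and 132 CPM.

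Adipocyte genes were highest in L20 replicate 2. Their sum was 122, 1055, 176 and 119 CPM, 3 of 9 were lower at an unadjusted p under 0.05 (2.32% of all genes), 1 did not overlap and was lower (17.9% of all genes), and the median was -1.44. LPL, which frees fatty acids from lipoproteins (chromosome 14, 4104761 to 4134964), had 39.4, 372, 38.3 and 12.6 CPM (-2.52 ± 0.85), with a gap of little more than 1 CPM between L20 replicate 1 and PI2 replicate 1. Without L20 replicate 2 its fold change was -0.71. PPARG, the regulator of fat cell formation, had 31.5, 268, 66.8 and 12.4 CPM, and the adipokine ADIPOQ had 5.85, 158, 20.0 and 1.85 CPM. Neither separated the stages. Of 27 genes that the study names for PI2, 1 was higher and 3 were lower (1.45% and 2.32% of all genes), with a median of 0.26. The study chose that list on these samples, so it is not independent evidence.

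The remaining lists had few members past the unadjusted threshold. Of 21 TGF-beta and BMP genes (median -0.01) 1 was higher and 1 was lower, and 2 (higher) and 4 (lower) did not overlap, beside 7.42% and 17.9% of all genes. The higher member LTBP2, which binds elastic microfibrils, had 63.7, 56.9, 284 and 159 CPM (2.09 ± 0.89), the lower member LTBP1, which holds TGF-beta in the matrix, had 77.9, 310, 66.4 and 29.7 CPM (-1.59 ± 0.70), and the co-receptor TGFBR3 had 129, 538, 795 and 342 CPM. Of 21 angiogenesis genes (median 0.06) 2 were higher, and KDR, the main VEGF receptor, had 44.8, 68.9, 75.3 and 213 CPM (1.69 ± 0.61), or 0.66 without PI2 replicate 2. Nuclei outside the stromal gate had 39.8, 54.8, 54.2 and 213 CPM of KDR. In PI2 replicate 2 these were 9197 of the 9400 kept nuclei. The endothelial gene PTPRB had 25.8, 82.6, 51.1 and 11.9 CPM over all nuclei. Which cells held the KDR UMIs of PI2 replicate 2 was not tested. Of the blood endothelial markers 1 of 10 was higher (KDR again, median -0.37). The lymphatic (6 genes, median -0.02) and mural markers (7 genes, median -0.61) had 0 members at that p. Over all genes 1.45% were higher and 2.32% lower at that p. For epithelium, luminal markers had 1 of 11 higher (median 0.90), hormone-sensing markers 2 of 7 (median 0.70) and myoepithelial markers 1 of 7 (median 0.96). Fibroblast markers had 2 of 9 lower (median -1.93).

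Epithelial levels were set apart by library as well. Summed luminal markers were 2464, 693, 3639 and 2761 CPM, lowest in L20 replicate 2, and 17.6%, 5.50%, 20.6% and 17.9% of nuclei held an EPCAM UMI. Hormone-sensing markers summed to 386, 494, 1976 and 265 CPM and lymphatic markers to 148, 527, 660 and 66.6 CPM. PRLR, whose levels are given above, is a member of both the luminal and the hormone-sensing list. In PI2 replicate 1 this gene alone made up most of the hormone-sensing sum. The keratin KRT7 had 423, 38.3, 346 and 325 CPM, the tight junction protein CLDN4 258, 25.9, 67.7 and 647 CPM, and the basal keratin KRT14 630, 45.2, 192 and 229 CPM. L20 replicate 2 was the lowest library in all 3 genes.

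In stromal nuclei edgeR called 0 of 15360 genes. Without an adjustment 676 genes passed at p under 0.05 and the fold change limit (704 at that p alone), 168 higher (1.09%) and 508 lower (3.31%), together 4.4%. DESeq2 called 14 genes with 808 at an unadjusted p under 0.05. Outside the genes of the gate, which these counts include and whose tests are not used, edgeR called 0 with 673 unadjusted and DESeq2 called 12, 1 higher and 11 lower. Libraries of the stages did not overlap in 9.45% of genes higher and 13.8% lower at PI2, 23.3% in all. In an edgeR fit of only the 4 libraries, 0 stromal genes were called. There 340 of 14274 genes passed at an unadjusted p under 0.05 and the fold change limit, 78 higher and 262 lower. Without L20 replicate 1, edgeR called 17 stromal genes, and the sums of PI2 replicate 2 rest on only 203 nuclei.

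Collagen genes used in the gate are given as a description, with no test. COL1A1 had 2147, 2268, 791 and 732 CPM in stromal nuclei and COL1A2 had 2018, 2191, 655 and 706 CPM, so that replicates were near each other and both L20 libraries were above both PI2 libraries. UMIs of these genes chose the nuclei, so the gate sets these levels in part. DCN, a proteoglycan that organises collagen fibrils, had 561, 1635, 648 and 278 CPM and overlapped. The endothelial genes PTPRB (207, 147, 195 and 269 CPM) and MMRN1 (488, 316, 581 and 273 CPM) and the pericyte gene RGS5 (42.6, 24.8, 25 and 59.0 CPM) overlapped too.

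Of 24 matrix genes outside the gate, 1 was higher and 4 were lower at an unadjusted p under 0.05, where 1.09% and 3.31% of all stromal genes were. The stages did not overlap in 3 (higher) and 4 (lower) of the 24, beside 9.45% and 13.8% of all stromal genes, with a median of 0.02 against -0.09 for all stromal genes. COL3A1, the collagen III chain, had 1534, 2515, 796 and 931 CPM (-1.27 ± 0.46), and SPARC, a collagen-binding glycoprotein, had 504, 592, 243 and 308 CPM (-1.04 ± 0.40). LUM had 707, 477, 96.6 and 282 CPM (-1.72 ± 0.55), and FN1 had 1034, 787, 202 and 343 CPM (-1.80 ± 0.70). In all 4 genes both L20 libraries were above both PI2 libraries, and each had an adjusted p of 0.999, as does every stromal gene given with a fold change unless another value stands beside it. THBS1 had 209, 249, 309 and 1395 CPM (1.86 ± 0.61), with PI2 replicate 2 far above the rest, and a fold change of 0.37 without that library. The fold change of COL3A1 was -0.84 without L20 replicate 2, and that of LUM was -1.09 without PI2 replicate 1 and -2.70 without PI2 replicate 2. COL6A3, a collagen VI chain, had 970, 1048, 621 and 1423 CPM and overlapped. Fibroblast markers outside the gate had 2 of 6 lower (median -0.12).

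The leading stromal genes that were lower at PI2 shared TREH, CPSF6, CD163 and CTSL with those of all nuclei. CD163 had 125, 401, 18.9 and 24.0 CPM, a log2 fold change of -3.68 ± 0.68 with an adjusted p of 0.812. ITGB2, the beta chain of leukocyte integrins, had 56.3, 32.4, 2.53 and 2.19 CPM (-4.25 ± 0.84, adjusted p of 0.812), and CD83, a marker of activated antigen-presenting cells, had 22.1, 35.9, 2.74 and 2.19 CPM (-3.53 ± 0.71, adjusted p of 0.812). The PI2 libraries lay below all 6 libraries of the other stages in CD83, which had 7.79 to 46.8 CPM there. In PI2 replicate 2, however, the values of CD83 and ITGB2 rest on 1 UMI each. That of CD163 rests on 11 UMIs and that of CPSF6 on 3. TREH had 30.5, 26.3, 0.631 and 0 CPM, with 3 UMIs in both PI2 libraries together. CPSF6 had 52.6, 184, 2.10 and 6.56 CPM (-5.31 ± 1.14).

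LPL had 45.3, 503, 22.5 and 8.74 CPM in stromal nuclei (-4.01 ± 0.88), and both PI2 libraries were below the other stages, which had 35.8 to 117 CPM. CTSD had 495, 249, 91.8 and 76.5 CPM (-2.21 ± 0.52), and CTSL 34.7, 29.9, 3.37 and 4.37 CPM (-3.21 ± 0.75). SLC11A1, a metal transporter of the phagosome, had 56.8, 60.6, 5.89 and 13.1 CPM (-2.87 ± 0.65). ATP6V0D2, a subunit of the proton pump that acidifies lysosomes, had 8.95, 19.4, 1.05 and 0 CPM (-4.05 ± 0.89), on 5 UMIs at PI2. The values of PI2 replicate 2 rest on 4 UMIs for LPL, 2 for CTSL, 6 for SLC11A1 and 35 for CTSD. The L20 replicates were within 1.5-fold of each other for CTSL and SLC11A1 but not for LPL. Without L20 replicate 2 the fold change of LPL was -1.39, and without PI2 replicate 1 no UMI of ATP6V0D2 remained at PI2.

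Macrophage genes also lay inside the stromal gate, which tests for EPCAM alone. Of the stromal nuclei, 5.91%, 18.9%, 4.70% and 4.43% passed the macrophage gate as well, and the summed macrophage markers were 377, 1043, 266 and 208 CPM. The macrophage gate also held the lymphatic endothelial gene MMRN1, at 62.3, 201, 637 and 64.9 CPM. In all nuclei MMRN1 had 55.6, 164, 151 and 10.9 CPM. Which cell type the nuclei in both gates belong to was not tested. Without nuclei that held a UMI of the 4 macrophage genes, LPL stood at 32.3, 539, 20.9 and 9.67 CPM and CTSD at 355, 120, 83.7 and 79.8 CPM. The stages were still apart in both genes, which had been chosen for no overlap in stromal nuclei. CTSL then had a log2 fold change of -2.06 and CTSS of -0.42. Of 9 macrophage markers in stromal nuclei, 4 were lower at an unadjusted p under 0.05 and 4 did not overlap and were lower, beside 3.31% and 13.8% of all stromal genes, with a median of -1.10, and MSR1 had 25.3, 54.7, 9.05 and 4.37 CPM (-2.48 ± 0.75).

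**Figure D5:**
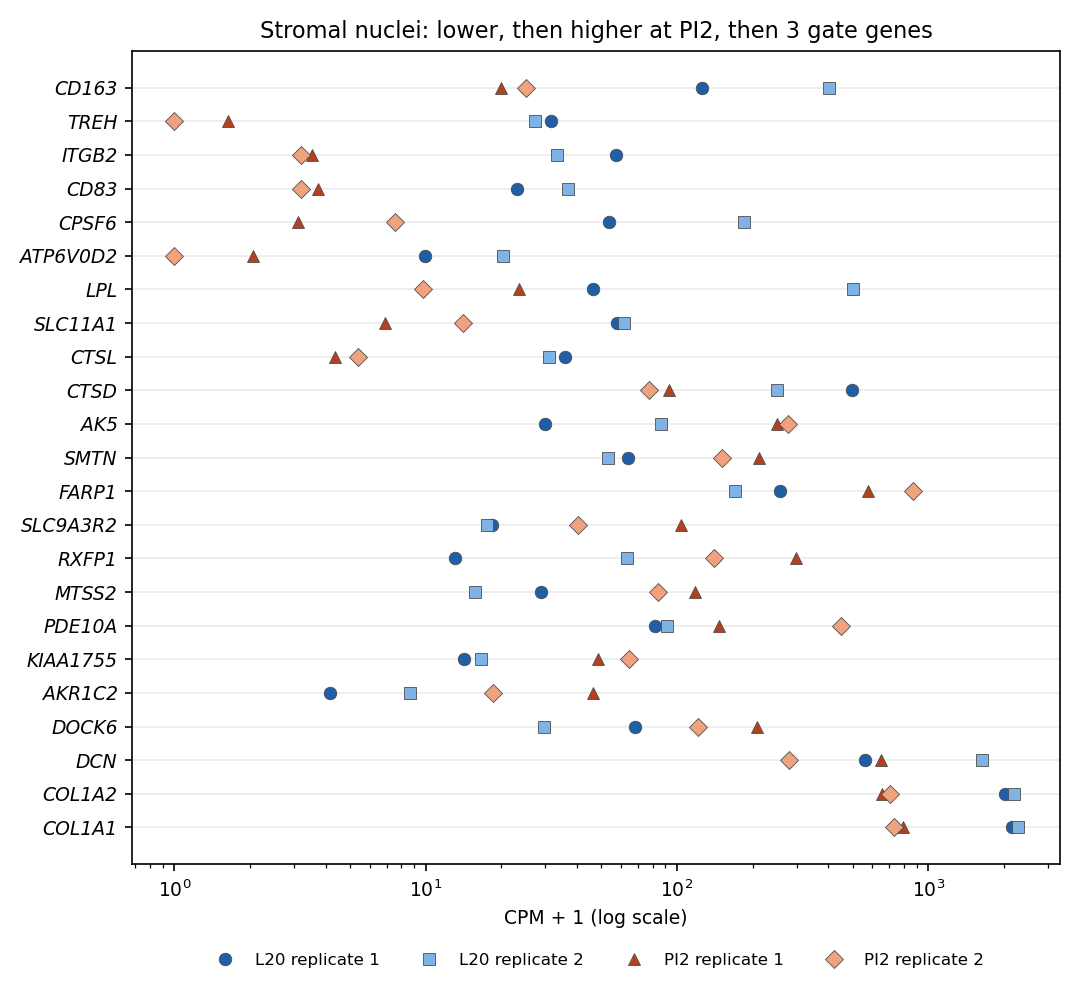
CPM + 1 on a log axis in stromal nuclei for the 20 leading genes (10 lower, then 10 higher at PI2) and 3 collagen-related genes of the gate, with 1 point per library. COL1A1 and COL1A2 show L20 libraries near 2000 CPM and PI2 libraries at 655 to 791 CPM with replicates close together, while DCN overlaps. UMIs of these 3 genes chose the nuclei, so the gate sets their levels in part.

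Of the genes that led in the other direction in stromal nuclei, AKR1C2 was also among those of all nuclei. AK5, an adenylate kinase (chromosome 6, 135745879 to 136020585), had 28.9, 85.4, 249 and 275 CPM (2.15 ± 0.49), and RXFP1, the relaxin receptor (chromosome 8, 47473465 to 47603332), had 12.1, 62.4, 296 and 139.9 CPM (2.50 ± 0.68). The 6 libraries of the other stages had 102 to 391 CPM of AK5 and 68.5 to 341 CPM of RXFP1, so that L20 was below every other stage and PI2 was within their range. FARP1, a FERM domain protein of the cell membrane, had 257, 170, 576 and 868 CPM (1.70 ± 0.45). Its PI2 libraries were above, and its L20 libraries below, the 298 to 560 CPM of the other stages. PDE10A, which breaks down cyclic nucleotides, had 81.0, 90.2, 147 and 450 CPM (1.75 ± 0.50). The fold change of PDE10A was 0.71 without PI2 replicate 2, and that of RXFP1 was 4.16 without L20 replicate 2. In a gate of PTPRB and MMRN1 alone, the fold changes were 0.78 for RXFP1, 0.32 for PDE10A and 1.08 for FARP1.

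SMTN, a contractile protein of smooth muscle, had 62.6, 52.2, 212 and 151 CPM (1.61 ± 0.42), and ACTA2, smooth muscle actin, had 29.9965, 19.9, 97.7 and 89.6 CPM (1.86 ± 0.80). Both had PI2 libraries within 1.5-fold of each other. Gaps of over 2-fold parted the PI2 replicates of SLC9A3R2, a membrane scaffold protein (17.4, 16.6, 103 and 39.3 CPM, 2.04 ± 0.55), and of AKR1C2 (3.16, 7.65, 45.5 and 17.5 CPM, 2.48 ± 0.74). MTSS2, which bends membranes with actin, had 27.9, 14.7, 117 and 83.1 CPM (2.19 ± 0.60), and DOCK6, an activator of Rac and Cdc42, had 67.4, 28.6, 208 and 120 CPM (1.72 ± 0.52). KIAA1755 had 13.2, 15.6, 47.4 and 63.4 CPM (1.88 ± 0.54). Without PI2 replicate 1 the fold change of SLC9A3R2 was 1.20 and that of AKR1C2 was 1.63. In the gate of PTPRB and MMRN1 alone it was 0.98 for SMTN and 0.95 for ACTA2.

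Vessel genes in stromal nuclei had 2 of 21 angiogenesis members higher and 4 not overlapping and higher, beside 1.09% and 9.45% of all stromal genes, with a median of 0.38. ESM1, a proteoglycan of sprouting endothelium, had 1.58, 1.49, 18.7 and 6.56 CPM (3.08 ± 1.11). The stromal sums of L20 replicate 1 and PI2 replicate 2 held 1900224 and 457470 UMIs, so their ESM1 levels rest on few UMIs. Nuclei outside the stromal gate had 1.26, 4.64, 35.4 and 1.30 CPM of ESM1. In PI2 replicate 1 its level was thus higher outside the gate than inside. In stromal nuclei KDR had 101, 83.7, 164 and 205 CPM. The lymphatic VEGF receptor FLT4 had 75.8, 86.9, 560 and 72.1 CPM there, high in PI2 replicate 1 alone. Blood endothelial markers had 0 of 9 at an unadjusted p under 0.05 and a median of 0.14, with the junction protein PECAM1 at 283, 340, 511 and 422 CPM. Lymphatic markers had 1 of 5 higher (median 0.42), mural markers 0 of 6 (median -0.43) and myoepithelial markers 1 of 7 higher (median 0.24). Of 21 TGF-beta and BMP genes 1 was higher (median -0.14), LTBP2 with 67.9, 45.4, 167 and 319 CPM (2.04 ± 0.85).

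Of 9 genes of dividing cells in stromal nuclei, 5 were lower at an unadjusted p under 0.05 (3.31% of all stromal genes) and 8 did not overlap and were lower (13.8% of all), with a median of -1.65. CENPF, a kinetochore protein, had 41.0, 12, 2.11 and 4.37 CPM (-3.42 ± 0.92), and the condensin subunit SMC4 had 85.3, 81.9, 42.9 and 41.5 CPM (-1.04 ± 0.44). SMC4 was nearly level within each stage. Of 20 genes of cell death and lysosomes, 5 were lower at that p with the fold change limit. In this list 8 genes did not overlap and were lower, beside the same shares of all stromal genes (median -0.35). The 5 included CTSS at 172, 244, 103 and 107 CPM (-1.03 ± 0.43). LAMP1, a lysosomal membrane protein, had 190, 114, 76.6 and 85.3 CPM (-0.98 ± 0.42), short of that limit. Without L20 replicate 1 the fold changes of CENPF and LAMP1 were -2.23 and -0.48. Mitochondrial genes had 4 of 13 lower (3.31% of all stromal genes), 8 not overlapping and lower (13.8%) and a median of -2.07, with COX2 at 4802, 2902, 285 and 1445 CPM (-2.20 ± 0.85), or -1.44 without PI2 replicate 1, -3.84 without PI2 replicate 2 and -0.99 in nuclei with at most 5% mitochondrial UMIs and 500 or more genes. Summed over the 13, they took 4.5003%, 1.78%, 0.187% and 1.55% of stromal UMIs.

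The other stromal lists had few members past the unadjusted threshold with the fold change limit, which 1.09% (higher) and 3.31% (lower) of all stromal genes passed. Adipocyte markers had 1 of 9 lower (median -0.76), neutrophil markers 1 of 5 (median -2.64), matrix proteases and inhibitors 1 of 16 higher and 1 lower (median -0.49), and milk fat genes 3 of 25 lower (median -0.19). STAT3 pathway genes had 1 of 18 lower (median -0.65) and NF-kappa-B genes 1 of 19 lower (median -0.21). In IL6ST the stromal nuclei had 350, 493, 522 and 662 CPM. Immediate early and heat shock genes had 1 of 18 higher and 1 lower (median 0.11), and the study's PI2 genes 3 of 27 lower (median -0.05), again on a list chosen on these samples. The lists with 0 members at an unadjusted p under 0.05 were lactose synthesis (median -0.55), antigen presentation (-0.55), milk proteins (-0.40), B and plasma cells (-0.28), T and NK cells (-0.22), interferon-stimulated genes (-0.03), prolactin signalling (0.00), the unfolded protein response (0.07), hormone-sensing (0.44) and luminal markers (0.64).

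Whether a gene differed between the stages by another amount in stromal than in other nuclei was tested in 1 fit with the library as a block. edgeR called 0 of 22678 genes, with 980 at an unadjusted p under 0.05 (800, or 3.53%, with the fold change limit), and DESeq2 called 0 with 606 at that p. The edgeR count changed when 1 library was left out, and also with the filters when all 10 libraries were kept. It was 15 with at most 25% mitochondrial UMIs and 14 without the filter on low counts. In nuclei of 500 or more genes and at most 5% mitochondrial UMIs it was 9. What sets the count was not tested. In the nuclei outside the stromal gate edgeR called 0 of 22019 genes and DESeq2 56, with 913 in edgeR at an unadjusted p under 0.05. With the fold change limit 1.58% were higher and 2.56% lower (4.14% in all), and the stages did not overlap in 7.06% and 17.9% (25% in all). RXFP1 had 6.42, 24.1, 32.0 and 7.93 CPM in the other nuclei, and its stage difference was 2.27 ± 0.46 (log2) larger in stromal nuclei, with an adjusted p of 0.492. For AK5 the other nuclei had 16.4, 52.8, 41.0 and 16.7 CPM, and the difference was 2.39 ± 0.63 (adjusted p of 0.653). edgeR called both genes for this difference with at most 25% mitochondrial UMIs (adjusted p of 0.00456 for AK5 and 0.0115 for RXFP1), without the filter on low counts (0.00529 and 0.0186) and in nuclei of 500 or more genes and at most 5% mitochondrial UMIs (0.0431 for both). In each of these settings EGR2 and PPARG had smaller adjusted p than either gene. At most 25% mitochondrial UMIs gave edgeR differences of 3.46 for EGR2 and 2.53 for PPARG (adjusted p of 4.32e-05 and 0.000324). A positive difference can come from a higher level in stromal nuclei or a lower level in the other nuclei at PI2. Which of these applied to EGR2 and PPARG was not tested. With only the 4 libraries edgeR called EGR2 alone (3.41, adjusted p of 0.00144). In AK5 and RXFP1 the other nuclei overlapped between the stages. AK5, RXFP1 and LPL had been chosen for a small p and no overlap in stromal nuclei. The difference uses those same stromal sums, so the choice favours a large one. Calls of AK5 and RXFP1 for it are therefore no separate support. LPL had 38.9, 247, 42.0 and 12.7 CPM in the other nuclei and overlapped there, with a difference of -1.61 ± 0.43 (adjusted p of 0.653). For AMOTL2 the difference was -1.46 ± 0.34 (adjusted p of 0.518), the gap between stages being wider in the other nuclei. TREH, CPSF6 and CD163 were low at PI2 on both sides of the gate, with 163, 1153, 29.1 and 21.8 CPM of CD163 in the other nuclei and a difference of 0.48 ± 0.40 (adjusted p of 0.993).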

How the data were processed

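UMIs per gene and nucleus were measured in 10 gland libraries. The deposited values are raw UMI counts of called barcodes, which the authors obtained by running CeleScope v1.1.7 against the Sscrofa11.1 genome, without normalization. For the annotation release, nothing is stated in the sources used. The files hold 28711 identifiers, of which 15457 had a symbol, 639 took one from the RefSeq table and 12615 had none.

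Groups came from the labels. Counts were summed per library over kept nuclei, and doublets were not removed. Tests on the sums used edgeR 4.0.16 (the quasi-likelihood F-test after TMM scaling and filterByExpr, 1 fit over the 5 stages, Benjamini-Hochberg adjustment), and SE is the log2 fold change over the root of F. DESeq2 1.42.0, limma 3.58.1, R 4.3.3, python 3.11.15, pandas 2.3.3, numpy 2.4.6, scipy 1.17.1 and matplotlib 3.10.9 were used, and the fits were tested on simulated data. A gene was called at an adjusted p under 0.05 and an absolute log2 fold change over 1. Between libraries, ratios used CPM + 1 and genes above 5 CPM.

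Where under 10 genes were called in a direction, the 10 of smallest unadjusted p under 0.05 were named, with a symbol, no overlap, that fold change and a mean over 5 CPM. From each of 30 gene lists (379 of 429 genes matched) up to 4 members of highest mean CPM were named, with the gate genes and those of largest replicate gaps. Members and lists were chosen with earlier results of these data known. Alternatives changed the tool, scaling, filters, gates, libraries and pairing. The spatial and milk samples were not used here. Replicate numbers did not pair the samples: deviations of L20 and PI2 libraries of the same number correlated at -0.36 over all nuclei and -0.17 over stromal nuclei.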

Additional observations from a re-analysis of the deposited data

How the results depend on the processing

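Over all nuclei, the count of called genes was 0 in the reported fit, 30 with DESeq2, 4 without a filter on low counts (CPSF6, TREH and CYP7A1 among them) and 854 at an unadjusted p. It was 0 with each library left out in turn. In stromal nuclei the count was 14 with DESeq2, 83 (23 higher, 60 lower) without a filter, 676 at an unadjusted p, and 0 to 17 with a library left out, the 17 without L20 replicate 1 (CD163, CPSF6 and LPL among them, at adjusted p of 0.0164, 0.0419 and 0.00501). For the difference between stromal and other nuclei the count was 14 without a filter, 1 with only the 4 libraries, 9 with nuclei limited to 500 or more genes and 5% mitochondrial UMIs, 15 with a limit of 25% mitochondrial UMIs, 800 at an unadjusted p, and 7 to 626 with a library left out (202 without L20 replicate 1, 626 without PI2 replicate 1). The cause was not tested. A lone library was assumed to vary like the other stages. Without TMM, the unadjusted split in stromal nuclei was 212 higher and 418 lower, against 168 and 508. The replicate block called 0 genes over all nuclei and 0 in stromal nuclei (564 and 555 at an unadjusted p), and changed no other call. Crossing the pairs, chosen after seeing the data, also called 0 and 0, and so did leaving out nuclei with a macrophage gene UMI and, over all nuclei, the stromal nuclei. The difference in the share of stromal nuclei was -14.6 percentage points, -8.55 after thinning, -11.7 at 3 or more UMIs, -16.3 with the stricter nuclei and -31.4 to 2.17 with a library left out. Of 1053 alternatives for 74 named values, 1014 kept their direction and stayed uncalled, and 38 became calls in the same direction. None of the 74 was called in the reported fits, so a call could not be lost. The leading genes were chosen for no overlap, so leaving out a library could hardly reverse them. FABP3 in the whole gland (-2.90) ran from -3.83 to 0.34 with a library left out, reversed without L20 replicate 1. Sizes moved more: in stromal nuclei LPL (-4.01) ran from -4.95 to -1.39, RXFP1 (2.50) from 0.78 to 4.16 and PDE10A (1.75) from 0.32 to 2.38. In a gate of PTPRB and MMRN1 alone, the stromal log2 fold changes of SPARC, THBS1, CENPF and LPL were -0.32, 0.75, -1.63 and -2.44. Over all nuclei, those of CTSD and CTSL were -1.1 and -1.86 in the stricter nuclei, and those of CYP7A1, C1QA, CD200R1 and CTSL were -2.78, -1.47, -2.14 and -1.77 without nuclei that held a macrophage gene UMI. Among the 4 libraries compared, the stromal sums of PI2 replicate 2 held the fewest UMIs, at 457470. L0 replicate 2, in the same fit, held 217973.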
